A study of Homo sapiens with 12 samples.

Results

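The 10 genes described here are the receptors and first signal carriers of the Toll-like receptor pathway in B cells: *TLR1*, *TLR6*, *TLR7*, *TLR9*, *TLR10*, *CD180*, *LY86*, *MYD88*, *IRAK1* and *IRAK4*. They were taken by gene symbol from the count tables of the MEC1 and JVM2 lines, 2 established cell lines derived from human B-cell neoplasms. The tables listed 22441 genes in MEC1 and 17144 genes in JVM2, and 9 of the 10 genes had a row in each. *TLR9* was not analysed here. The libraries came from 4 cell populations with 3 biological replicates each, and they addressed how high expression of *UGT2B17*, an enzyme that couples lipophilic molecules to glucuronic acid, changes such cells. MEC1-2B17 and JVM2-2B17 cells carried the *UGT2B17* coding sequence in a pcDNA6 vector and were kept in blasticidin. JVM2-CTRL cells carried the empty vector under blasticidin, and MEC1-CTRL cells carried a stable shRNA knock-down of *UGT2B17* under puromycin. The MEC1 arms thus differed in construct and antibiotic, whereas the JVM2 arms shared the vector backbone and the antibiotic and differed in the insert. All 4 populations were grown under drug selection, and the labels name no Toll-like receptor ligand for any of them. Libraries held 31762649 to 37744991 counts in MEC1 and 8809179 to 11231330 counts in JVM2, so low values were known less precisely in JVM2. *UGT2B17* itself was 1.92-fold higher in MEC1-2B17 than in MEC1-CTRL cells (log2 fold change 0.94, adjusted *P* = 2.0e-09) and 1.39-fold higher in JVM2-2B17 than in JVM2-CTRL cells (log2 fold change 0.48, adjusted *P* = 0.0048), as the labels state. Between the lines it was lower in MEC1, by 2.84-fold among the controls and by 2.05-fold among the 2B17 populations.

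Toll-like receptors recognise molecules of microbes. *TLR1*, *TLR6* and *TLR10* form a family of surface receptors that work in pairs, *TLR1* and *TLR6* with *TLR2* as the partner for bacterial lipopeptides, while *TLR7* and *TLR9* sit in endosomes and bind RNA and DNA. *CD180*, also called RP105, resembles *TLR4* outside the cell but lacks its signalling domain, and it is held at the surface of B cells by *LY86*, also called MD-1. After ligand binding, most of these receptors recruit the adaptor *MYD88*, which gathers the kinase *IRAK4* and then *IRAK1* into a complex that leads to NF-kB and interferon regulatory factors. B cells are known to express *TLR1*, *TLR6*, *TLR7*, *TLR9*, *TLR10* and *CD180*, and to answer the ligands of *TLR7* and *TLR9* by division and antibody production.

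*TLR10*, *TLR1* and *TLR6* lie on the minus strand of chromosome 4, within 84.6 kb from 38772238 to 38856817 of GRCh38. *TLR6*, from 38822897 to 38856817, lies inside the span of *TLR1*, from 38790677 to 38856817, so both share a start. *TLR7* lies on the X chromosome from 12867072 to 12890361, *LY86* on chromosome 6 from 6588108 to 6654983 and *IRAK1* on the X chromosome from 154010506 to 154019902. These spans are those of GENCODE v44. The sequence upstream of the start that RefSeq gives was read on GRCh38.p14, with entries for 7 of the 10 genes, *TLR6*, *TLR9*, *CD180*, *LY86*, *MYD88*, *IRAK1* and *IRAK4*. For *LY86*, *MYD88* and *IRAK4* the RefSeq start lies inside the GENCODE span. The printed *LY86* stretch therefore lies inside that span too, as do the *MYD88* motifs given below. Positions before the start are counted from the RefSeq start. The 250 bases upstream of 3 genes are printed 5′ to 3′ along each gene, because they stand for the patterns that follow. *TLR6* (chr4:38856818-38857067, minus strand) and *LY86* (chr6:6588470-6588719, plus strand) fell in MEC1-2B17 and rose in JVM2-2B17 cells, and *IRAK1* (chrX:154019903-154020152, minus strand) fell in both. The *TLR6* stretch lies equally before the GENCODE start of *TLR1*, which rose in both lines. Capitals mark the letters GAGGAA, the core of the PU box, on either strand.
TLR6: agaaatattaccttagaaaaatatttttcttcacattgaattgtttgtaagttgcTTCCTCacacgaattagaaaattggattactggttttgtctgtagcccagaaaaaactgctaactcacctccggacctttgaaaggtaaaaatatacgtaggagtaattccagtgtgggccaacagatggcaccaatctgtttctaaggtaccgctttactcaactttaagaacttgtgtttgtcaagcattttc
LY86: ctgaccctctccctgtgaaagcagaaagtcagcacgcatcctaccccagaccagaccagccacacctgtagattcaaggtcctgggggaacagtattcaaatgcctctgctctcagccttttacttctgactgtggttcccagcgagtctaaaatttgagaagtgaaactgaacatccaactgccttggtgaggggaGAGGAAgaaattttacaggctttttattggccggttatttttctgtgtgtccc
IRAK1: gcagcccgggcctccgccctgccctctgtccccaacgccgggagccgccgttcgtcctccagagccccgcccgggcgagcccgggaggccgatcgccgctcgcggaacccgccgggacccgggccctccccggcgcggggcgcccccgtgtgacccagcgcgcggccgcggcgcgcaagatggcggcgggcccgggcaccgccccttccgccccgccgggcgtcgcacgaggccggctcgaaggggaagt
The *TLR6* stretch was rich in A and T, with 36.4% G and C and 4 CpG dinucleotides, and its single GAGGAA lay on the opposite strand, 195 to 190 bases before the start. The *LY86* stretch had 48.4% G and C and 3 CpG, with GAGGAA 53 to 48 bases before the start. The *IRAK1* stretch had 82.4% G and C and 43 CpG, and it held none of the 4 motifs searched on both strands, which were GAGGAA, the octamer ATGCAAAT, the interferon-stimulated response element (GAAA, any 2 bases, GAAA) and the kappa B letters (GGG, any 2 bases, TTTCC). In the 250 bases before *MYD88*, which fell in both lines, GAGGAA lay 18 to 13 bases and the interferon-stimulated response element, as GAAAGCGAAA, lay 61 to 52 bases before the start. Among 35116 promoter stretches of the same length, 23.6% held GAGGAA, 1.63% the octamer, 3.02% the interferon-stimulated response element and 1.73% the kappa B letters. These matches describe letters in the windows and not bound sites.

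In MEC1, the largest change among the 9 genes was in *TLR7*, the endosomal receptor for single-stranded RNA. Levels are in CPM, the gene's counts relative to the size of its library after TMM scaling. *TLR7* had 72.0, 68.2 and 67.5 CPM in the MEC1-CTRL libraries and 26.5, 25.8 and 23.8 CPM in the MEC1-2B17 libraries. All 3 MEC1-2B17 libraries lay far below all 3 controls. The fall was 2.73-fold, or -1.45 on the log2 scale (SE 0.050, adjusted *P* = 6.6e-14, edgeR's quasi-likelihood test with Benjamini-Hochberg adjustment over all genes tested).

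Among the surface receptors, *TLR1* moved the other way. It rose in MEC1 from 79.1, 81.0 and 78.9 CPM to 103, 103 and 96.2 CPM, a log2 change of 0.34 (SE 0.037, adjusted *P* = 4.4e-07). *TLR6* fell from 137, 133 and 127 CPM to 114, 113 and 113 CPM (log2 fold change -0.22, SE 0.033, adjusted *P* = 2.5e-05). For neither gene did the arms overlap. *TLR10*, the most abundant of the 9 genes per kilobase in MEC1, went from 473, 473 and 483 CPM to 442, 453 and 428 CPM, a separation without overlap but of only 1.08-fold (log2 fold change -0.11, SE 0.033, adjusted *P* = 0.012). Its call was lost without MEC1-2B17 replicate 3, with an adjusted *P* of 0.085, and when all 12 libraries were fitted together, with an adjusted *P* of 0.13. *TLR1* and *TLR6* are close paralogs. 249 stretches of 50 bases occur in both sets of transcripts, 5.33% of those of *TLR1* and 3.64% of those of *TLR6*. Reads from these stretches could have been split between the genes, and the part of such reads in the changes was not tested.

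In the RP105 complex, *LY86* fell in MEC1 from 57.2, 57.7 and 61.4 CPM to 52.1, 54.6 and 51.6 CPM (log2 fold change -0.15, SE 0.044, adjusted *P* = 0.0078), with every MEC1-2B17 library below every control. *CD180*, the receptor that *LY86* serves, was close to absent, with 21 to 49 counts per MEC1-CTRL library and 27 to 35 counts per MEC1-2B17 library. Its log2 fold change of 0.01 (95% interval -0.51 to 0.53, adjusted *P* = 0.98) did not pass the test, and the sign turned when any of 3 libraries was left out.

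The adaptor and kinases changed little in MEC1. *MYD88* had 37.9, 34.3 and 37.6 CPM in the controls and 32.0, 29.8 and 34.5 CPM in MEC1-2B17, and the highest MEC1-2B17 library overlapped the lowest control (log2 fold change -0.19, SE 0.058, adjusted *P* = 0.012). *IRAK1* fell from 325, 321 and 338 CPM to 297, 280 and 315 CPM without overlap (log2 fold change -0.14, SE 0.041, adjusted *P* = 0.0088). Without MEC1-2B17 replicate 2, the lowest library for both genes, neither call remained, with adjusted *P* of 0.088 for *MYD88* and 0.072 for *IRAK1*. *IRAK4* had 20.8 to 23.1 CPM in the controls and 20.5 to 21.1 CPM in MEC1-2B17, and its log2 fold change of -0.07 (95% interval -0.19 to 0.05, adjusted *P* = 0.34) was not past the test. In all, 7 of 9 genes were past the threshold in MEC1, 1 higher and 6 lower. For comparison, 41.7% of the 16581 genes tested were past it, 20.0% higher and 21.6% lower. The arms did not overlap for 6 of the 9 genes, against 50.1% of all genes, and the median log2 fold change of the 9 was -0.14, against 0.0026 for all genes. Against a fold of 1.3 rather than 0 change, the test of glmTreat kept *TLR7* alone.

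**Figure D1:**
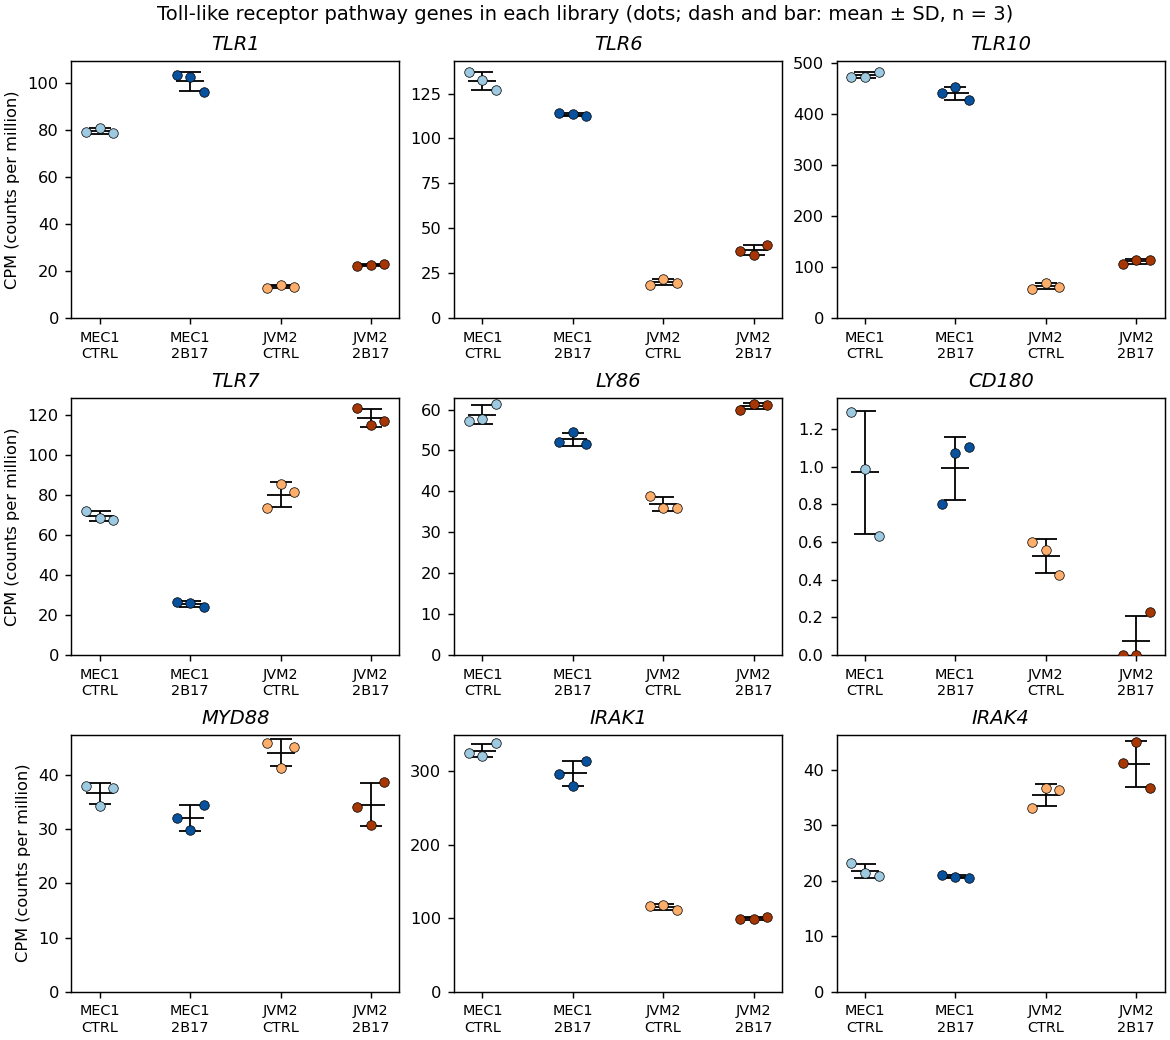
CPM of 9 Toll-like receptor pathway genes in each of the 12 libraries, each gene on its own linear axis from 0; dots are libraries, and dashes with bars give the mean and SD of 3. *TLR7* drops from a mean of 69.2 to 25.4 CPM in MEC1 and climbs from 80.1 to 118 CPM in JVM2, and *CD180* stays below 1.3 CPM in every library.

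In JVM2, the receptors rose. *TLR6* went from 18.7, 22.01 and 19.4 CPM in JVM2-CTRL to 37.6, 35.5 and 40.8 CPM in JVM2-2B17 cells, a 1.89-fold rise (log2 fold change 0.92, SE 0.093, adjusted *P* = 1.3e-05). *TLR10* went from 57.1, 69.8 and 62.2 CPM to 106, 115 and 114 CPM (log2 fold change 0.82, SE 0.076, adjusted *P* = 5.3e-06). *TLR1* went from 12.95, 14.2 and 13.5 CPM to 22.4, 22.5 and 23.2 CPM (log2 fold change 0.74, SE 0.092, adjusted *P* = 7.1e-05). The 3 neighbouring surface receptors of chromosome 4 therefore rose by 1.67 to 1.89-fold, and in each the lowest JVM2-2B17 library was above the highest control. *TLR7* rose less, from 73.4, 85.4 and 81.4 CPM to 123, 115 and 117 CPM (log2 fold change 0.56, SE 0.068, adjusted *P* = 5.6e-05), again without overlap.

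*LY86* rose in JVM2 from 38.8, 35.8 and 36.0 CPM to 59.9, 61.3 and 61.2 CPM (log2 fold change 0.72, SE 0.068, adjusted *P* = 6.2e-06), while *CD180* had too few counts for the filter. The JVM2-CTRL libraries had 6, 6 and 4 *CD180* counts, and the JVM2-2B17 libraries had 0, 0 and 2. From the summed counts of 16 and 2, *CD180* was 7.66-fold lower in JVM2-2B17 (95% interval 1.80 to 68.6, exact and for counting error only). Tested without the filter, it had an adjusted *P* of 0.031. The 2 partners of the RP105 complex thus moved in opposite directions in JVM2, at very unequal levels.

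*MYD88* and *IRAK1* fell in JVM2 while the receptors rose. *MYD88* went from 45.8, 41.2 and 45.2 CPM to 34.1, 30.7 and 38.7 CPM (log2 fold change -0.35, SE 0.091, adjusted *P* = 0.011), and *IRAK1* from 117, 117 and 111 CPM to 98.9, 99.3 and 102 CPM (log2 fold change -0.20, SE 0.057, adjusted *P* = 0.017), both without overlap. These calls were near the threshold. *MYD88* lost its call without JVM2-CTRL replicate 1 or 3 (adjusted *P* 0.052 and 0.057), and *IRAK1* without JVM2-CTRL replicate 1 or 2 or JVM2-2B17 replicate 1 (adjusted *P* 0.059, 0.075 and 0.066). *IRAK4* had 33.2, 36.75 and 36.4 CPM against 41.2, 45.0 and 36.77 CPM, so its arms nearly touched. Its log2 fold change of 0.21 (95% interval 0.02 to 0.40, adjusted *P* = 0.092) did not pass the test, though it did without JVM2-2B17 replicate 3 (adjusted *P* = 0.037) and in the fit of all 12 libraries (adjusted *P* = 0.048). In JVM2, 7 of 8 genes tested were past the threshold, 5 higher and 2 lower, where 29.3% of 13021 genes were past it, 14.1% higher and 15.3% lower. The arms did not overlap for any of the 8, *IRAK4* by the narrowest gap, against 45.2% of all genes, and the median log2 fold change of the 8 was 0.64, against 0.00012 for all genes. The share of counts on mitochondrial genes also differed between these arms, with 0.561 to 0.723% in JVM2-CTRL and 0.164 to 0.382% in JVM2-2B17 libraries, and its part in these differences was not tested. In MEC1 that share was 0.816 to 0.860% in the controls and 0.829 to 0.886% in MEC1-2B17.

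Whether the change between arms differed between the lines was tested as the interaction of line and arm, with all 12 libraries in 1 fit. A negative value means a smaller rise or a larger fall in MEC1 than in JVM2. The control was a knock-down under puromycin in MEC1 and an empty vector under blasticidin in JVM2. Line and kind of control therefore cannot be told apart in this test. *UGT2B17* itself differed by 0.47 (SE 0.13, adjusted *P* = 0.0077). The difference was largest for *TLR7* among the genes with counts in every library, at -2.01 on the log2 scale (SE 0.082, adjusted *P* = 2.0e-13). *TLR6* followed with -1.14 (SE 0.088, adjusted *P* = 4.1e-09), *TLR10* with -0.93 (SE 0.083, adjusted *P* = 3.0e-08) and *LY86* with -0.87 (SE 0.078, adjusted *P* = 3.0e-08). These 4 genes fell in MEC1 and rose in JVM2. *TLR1* rose in both lines, and by less in MEC1 (difference -0.40, SE 0.090, adjusted *P* = 0.0018). *IRAK4* passed narrowly at -0.28 (adjusted *P* = 0.045), and the call was lost in 10 of the 12 fits that left out a library. *CD180* gave 2.85 (SE 0.98, adjusted *P* = 0.031), a value that rests on the 2 counts of JVM2-2B17 and whose call was lost in 4 of those 12 fits, with an adjusted *P* of up to 0.12. It was 2.19 and 2.36 without JVM2-2B17 replicates 1 and 2, and 6.77 without replicate 3, the one JVM2-2B17 library with *CD180* counts.

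*MYD88* and *IRAK1* fell in both lines, and no difference between the lines was detectable for either. The difference was 0.17 for *MYD88* (95% interval -0.06 to 0.40, adjusted *P* = 0.26) and 0.07 for *IRAK1* (95% interval -0.08 to 0.22, adjusted *P* = 0.52) in the same fit. In total 7 of the 9 genes were past the threshold for the interaction, 1 higher and 6 lower, where 32.0% of 15130 genes were, 15.3% higher and 16.7% lower. The 1 higher is *CD180*, which the filter kept through its MEC1 counts and which adds no support to this count. The glmTreat test against a fold of 1.3 kept *TLR7*, *TLR6*, *TLR10* and *LY86*.

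**Figure D2:**
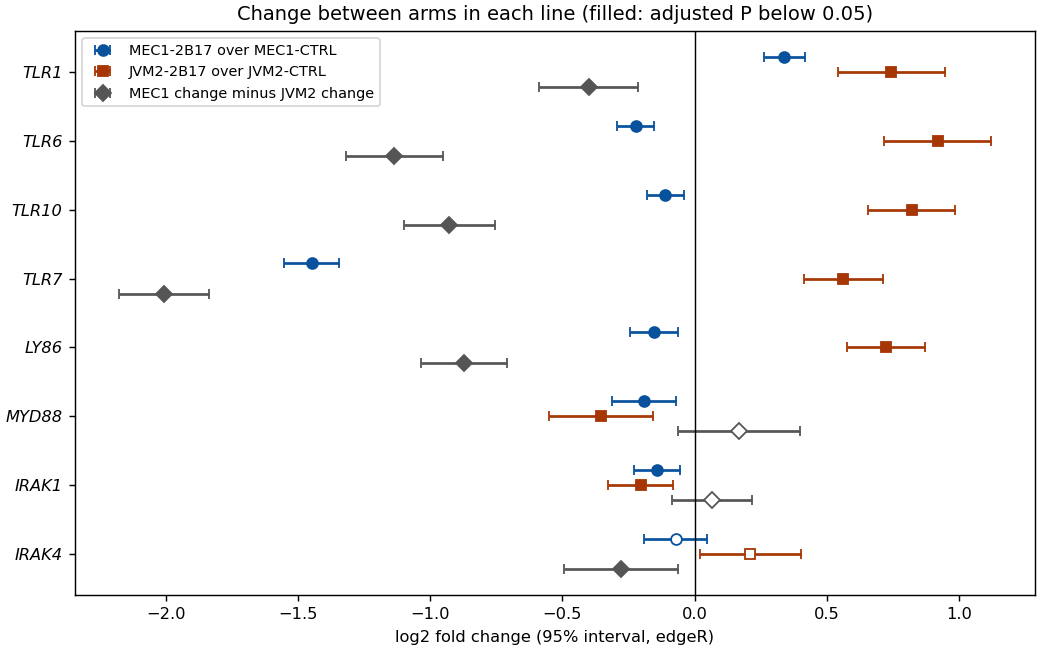
Log2 fold change of 2B17 over CTRL cells in MEC1 (circles) and JVM2 (squares), and the difference between the lines (diamonds), with 95% intervals from edgeR; filled symbols are past an adjusted P of 0.05. Apart from *TLR1*, the receptors and *LY86* lie left of 0 in MEC1 and right of 0 in JVM2, whereas *MYD88* and *IRAK1* lie left of 0 in both; *CD180* is left out because it was not tested in JVM2.

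At baseline, here meaning the control populations, MEC1-CTRL and JVM2-CTRL cells differed in 8 of the 9 genes, where 78.3% of all genes tested differed. To compare genes with each other, jointly scaled CPM were divided by the kilobases of exon of each gene. In MEC1-CTRL the order was *TLR10* with 107 ± 1.07 CPM per kilobase (SD, n = 3), *IRAK1* with 73.0 ± 1.86, *LY86* with 46.3 ± 1.68, *TLR6* with 18.3 ± 0.728, *TLR1* with 16.7 ± 0.255, *TLR7* with 12.6 ± 0.468, *MYD88* with 8.29 ± 0.454, *IRAK4* with 2.83 ± 0.163 and *CD180* with 0.162 ± 0.0554, and no neighbours in this order overlapped. With the longest transcript in place of all exons, *TLR1* stood at 26.5 CPM per kilobase and so above *TLR6*. In JVM2-CTRL the order was *LY86* with 32.7 ± 1.53 CPM per kilobase, *IRAK1* with 28.9 ± 0.890, *TLR7* with 16.4 ± 1.21, *TLR10* with 15.95 ± 1.58, *MYD88* with 11.2 ± 0.661, *IRAK4* with 5.18 ± 0.278, *TLR1* with 3.19 ± 0.137, *TLR6* with 3.13 ± 0.262 and *CD180* with 0.0993 ± 0.0172. Here the libraries of *TLR7* and *TLR10* overlapped, as did those of *TLR1* and *TLR6*. With the longest transcript, the mean of *IRAK1* at 34.4 ± 1.06 stood above that of *LY86* at 32.9 ± 1.54. *TLR1* at 5.07 ± 0.218 then stood apart from *TLR6* at 3.20 ± 0.268. *TLR10* led the surface receptors in both lines, and *CD180* was lowest in both.

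All 3 surface receptors of chromosome 4 were higher in MEC1-CTRL than in JVM2-CTRL, *TLR10* by 6.71-fold (log2 fold change 2.75, SE 0.061, adjusted *P* = 1.6e-19), *TLR6* by 5.85-fold (log2 fold change 2.55, SE 0.063, adjusted *P* = 8.6e-19) and *TLR1* by 5.22-fold (log2 fold change 2.39, SE 0.063, adjusted *P* = 2.4e-18). *IRAK1* was 2.53-fold higher in MEC1-CTRL (log2 fold change 1.34, SE 0.051, adjusted *P* = 1.6e-15) and *LY86* was 1.42-fold higher (log2 fold change 0.50, SE 0.056, adjusted *P* = 6.7e-08). The remaining signal carriers and *TLR7* were lower in MEC1-CTRL. Their log2 fold changes were -0.87 for *IRAK4* (SE 0.074, adjusted *P* = 9.8e-10), -0.44 for *MYD88* (SE 0.076, adjusted *P* = 2.6e-05) and -0.38 for *TLR7* (SE 0.057, adjusted *P* = 4.1e-06). *CD180* at 0.71 (95% interval -0.17 to 1.60, adjusted *P* = 0.13) was not past the test. The controls did not overlap for 8 of the 9 genes, which were the 8 past the threshold, 5 higher and 3 lower. Such differences were common between the lines, as 78.3% of 15130 genes were past the threshold, 39.6% higher and 38.7% lower, and 81.8% did not overlap. The line, the control construct and the antibiotic cannot be told apart here. The paper also reports different sequencing sites and does not say which libraries each of them ran. Any effect of the site therefore cannot be separated from the line either. With the MEC1 counts thinned to the depth of JVM2, 8 of the 9 genes were past the threshold. Scaling by library size alone raised the log2 fold changes of all genes by a median of 0.16 and turned no direction of the 8, though it took *TLR7* to -0.22 and *MYD88* to -0.28. Under the 11 alternatives, 6 to 8 of the 9 genes were past the threshold. *TLR7* and *MYD88* each kept the call in 10 of the 11.

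In the 2B17 populations, the lines stood apart in a different way. These values share no libraries with the control comparison, but any effect of the sequencing site cannot be separated from the line here either. *UGT2B17* itself stood at 7.82 CPM per kilobase in MEC1-2B17 and 16.1 in JVM2-2B17, so that MEC1-2B17 lay below the 11.5 of JVM2-CTRL. *TLR7*, lower in MEC1 by 0.38 on the log2 scale among the controls, was 5.23-fold lower in MEC1-2B17 than in JVM2-2B17 cells (log2 fold change -2.39, SE 0.060, adjusted *P* = 9.9e-19). *LY86* turned from higher to lower in MEC1, at -0.37 (SE 0.054, adjusted *P* = 2.6e-06), or at -0.21 (adjusted *P* = 0.0014) with scaling by library size alone. *TLR1*, *TLR10* and *TLR6* remained higher in MEC1, with log2 fold changes of 1.99, 1.82 and 1.41, and so did *IRAK1* at 1.40. *IRAK4* at -1.15 and *MYD88* at -0.27 remained lower, but the *MYD88* call was lost with scaling by library size alone (adjusted *P* = 0.22) and without JVM2-2B17 replicate 3 (adjusted *P* = 0.066). *CD180* was 14.2-fold higher in MEC1-2B17 by its summed counts of 97 and 2 (exact 95% interval 3.83 to 119, counting error only). All 9 genes were past the threshold, 5 higher and 4 lower, and none overlapped, where 77.1% of all genes were past it, 38.9% higher and 38.2% lower, and 77.8% did not overlap. *CD180* entered this fit through its MEC1 counts, having too few for the filter in JVM2 alone, so it adds no support to this count. The order of levels also shifted. In MEC1-2B17, *MYD88* with 7.29 CPM per kilobase stood above *TLR7* with 4.64, the reverse of MEC1-CTRL, also with the longest transcript (7.44 and 4.83). *TLR1* with 21.1 CPM per kilobase of exon stood above *TLR6* with 15.7, an order that the longest transcript gave in MEC1-CTRL as well. In JVM2-2B17, *LY86* with 53.9 CPM per kilobase of exon led *TLR10* with 28.2, *IRAK1* with 25.1 and *TLR7* with 24.3, of which the last pair overlapped. With the longest transcript, *TLR10* and *IRAK1* stood level at 29.8 CPM per kilobase.

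**Figure D3:**
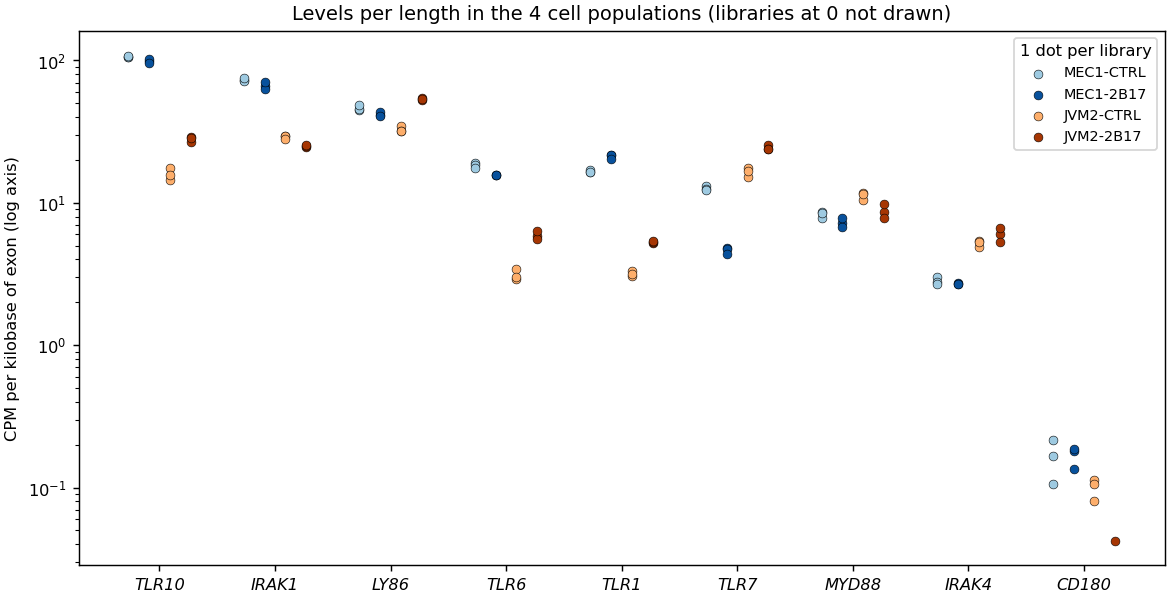
CPM per kilobase of exon, on a log axis, for 9 genes in the 4 cell populations, 1 dot per library. *TLR10*, *TLR6* and *TLR1* are highest in the MEC1 libraries, *TLR7* is highest in JVM2-2B17 and lowest in MEC1-2B17 libraries, and *CD180* lies lowest of the 9 throughout; 2 JVM2-2B17 libraries without a *CD180* count are not drawn.

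Other receptors of the family were low. *TLR8*, the endosomal RNA receptor next to *TLR7*, had 92 to 114 counts in MEC1-CTRL and 32 to 43 counts in MEC1-2B17 libraries (log2 fold change -1.40, adjusted *P* = 1.3e-06). In JVM2 it went from 0 to 3 counts in the controls to 31 to 44 counts, which was 23.4-fold by the summed counts of 5 and 112 (exact 95% interval 9.74 to 73.5, counting error only; adjusted *P* = 8.1e-06). *TLR8* thus fell where *TLR7* fell and rose where *TLR7* rose. *TLR4*, the receptor for lipopolysaccharide, fell in MEC1 from 87 to 113 counts to 16 to 20 counts (log2 fold change -2.33, SE 0.19, adjusted *P* = 1.3e-08) and had 1 to 4 counts per library in JVM2. *TLR3*, which binds double-stranded RNA, fell by 0.47 on the log2 scale in MEC1 (adjusted *P* = 0.0045) and had 2 to 5 counts in JVM2. *TLR2*, the partner of *TLR1* and *TLR6*, had 41 to 76 counts per MEC1 library, *TLR5*, the flagellin receptor, had 3 to 12, *CD14* had 0 to 5 and *CD36* had 0 to 10, and these 4 had no row in the JVM2 table, where every gene listed had at least 10 counts over the 6 libraries. Of the 8 other receptors and co-receptors, 3 fell among 5 tested in MEC1, at a median log2 fold change of -0.47, while 1 rose among 2 tested in JVM2, where 21.6% of all genes fell in MEC1 and 14.1% rose in JVM2. The gene that rose in JVM2 was *TLR8*, which passed the filter there through JVM2-2B17 alone.

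Among the proteins that fold, carry and trim the receptors, *HSP90B1* and *LGMN* rose in MEC1 and fell in JVM2. *HSP90B1*, the chaperone known as gp96 on which Toll-like receptors depend, rose in MEC1 from 839 ± 35.9 to 1343 ± 55.8 CPM (log2 fold change 0.68, SE 0.036, adjusted *P* = 2.0e-11) and fell in JVM2 from 1254 ± 25.0 to 856 ± 41.5 CPM (log2 fold change -0.55, SE 0.053, adjusted *P* = 8.4e-06). *LGMN*, an endosomal protease that cleaves *TLR7* and *TLR9*, rose by 0.56 in MEC1 (adjusted *P* = 1.8e-08), whereas it fell by 0.59 in JVM2 (adjusted *P* = 1.8e-05). *CXorf21*, whose product is also called TASL and links endosomal receptors to *IRF5*, followed the receptors instead, with -0.50 in MEC1 (adjusted *P* = 1.5e-06) but 0.38 in JVM2 (adjusted *P* = 0.0067). *UNC93B1*, the escort of endosomal receptors, fell in JVM2 from 37.8 ± 3.24 to 27.6 ± 0.427 CPM (log2 fold change -0.45, adjusted *P* = 0.0015), and had 60.3 ± 2.97 and 57.4 ± 6.03 CPM in the MEC1 arms. Of this list, 3 rose and 5 fell among 13 tested in MEC1, with a median of -0.07, and 4 rose and 4 fell among 12 tested in JVM2, with a median of 0.03. Over all genes 41.7% were past the threshold in MEC1 and 29.3% in JVM2. At baseline *SLC15A4*, the transporter that binds TASL, was 3.27-fold higher in MEC1-CTRL, while *CXorf21* was 2.69-fold and the protease *CTSB* 3.51-fold higher in JVM2-CTRL. *PLD4*, a nuclease of endosomes, was listed in the MEC1 table alone.

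The adaptors and kinases below the receptors passed the test about as often as all genes, of which 41.7% did in MEC1 and 29.3% in JVM2. In MEC1, 3 rose and 6 fell among 23 tested (median log2 fold change -0.03), and in JVM2, 3 rose and 3 fell among 25 (median -0.10). *PIK3AP1*, also called BCAP, an adaptor to phosphoinositide kinase, fell in MEC1 from 635 ± 3.77 to 378 ± 7.35 CPM (log2 fold change -0.75, SE 0.032, adjusted *P* = 1.1e-12). *PELI3*, a ubiquitin ligase of the pellino family, fell by 0.82 (adjusted *P* = 1.1e-06), and the kinase *IRAK2* rose by 0.49 in MEC1 (adjusted *P* = 4.0e-07). In JVM2 the pellino *PELI2* rose from 4.87 ± 0.791 to 22.04 ± 0.959 CPM (log2 fold change 2.17, SE 0.13, adjusted *P* = 1.1e-07), whereas the transcription factor *IRF7* and the NF-kB regulator *IKBKG* fell by 0.31 (adjusted *P* = 0.0035) and 0.38 (adjusted *P* = 0.041). Among 10 negative regulators, 3 rose and 2 fell in MEC1 (median 0.05) and 2 rose in JVM2 (median 0.02), beside the same shares of all genes. *IRAK3*, a kinase-dead relative that restrains IRAK signalling, rose in both lines, by 0.23 in MEC1 (adjusted *P* = 2.4e-04) and more, by 0.78, in JVM2 (adjusted *P* = 5.1e-04), from a baseline that was 6.81-fold higher in MEC1-CTRL. *TNFAIP3*, the NF-kB inhibitor A20, fell by 0.34 in MEC1 (adjusted *P* = 4.0e-06) and *SIGIRR*, an inhibitory receptor, rose by 0.48 (adjusted *P* = 5.1e-04).

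Genes that stimulated B cells induce showed no common direction. In MEC1, 8 rose and 4 fell among 17 tested (median log2 fold change 0.15), and in JVM2, 2 rose and 6 fell among 17 (median -0.12). Of all genes, 20.0% rose and 21.6% fell in MEC1, and 14.1% rose and 15.3% fell in JVM2. The cytokine *IL10* fell by 0.72 in MEC1 (adjusted *P* = 9.1e-08). The transcription factor *MYC* and the lymphotoxin *LTA* rose in MEC1, by 0.50 and 0.42. In JVM2 the chemokine *CCL22*, the NF-kB cofactor *NFKBIZ* and *LTA* fell by 1.08, 0.96 and 0.73 (adjusted *P* = 0.0014, 1.0e-06 and 5.8e-04). *IL6* was not analysed here. The same genes stood far apart at baseline, where *IL10* was 21.0-fold higher in MEC1-CTRL and the costimulatory ligand *CD86* was 5.70-fold and the stress gene *IER3* 5.83-fold higher in JVM2-CTRL. The *IL10* value rests on 5 to 12 counts per JVM2-CTRL library.

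**Figure D4:**
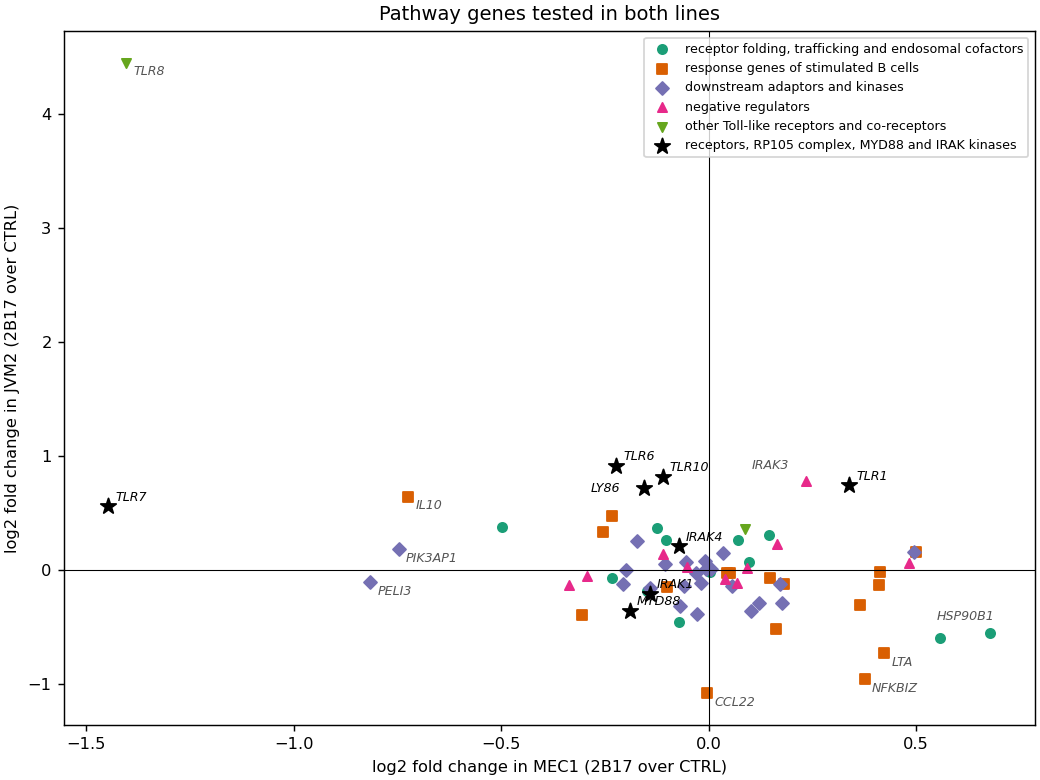
Log2 fold change of 2B17 over CTRL cells in MEC1 (horizontal axis) and JVM2 (vertical axis) for 64 pathway genes of 5 lists and 8 receptor, RP105, adaptor and kinase genes (stars) tested in both lines. *TLR7* and *TLR8* lie at the upper left, down in MEC1-2B17 but up in JVM2-2B17 cells, and *HSP90B1*, *LTA* and *NFKBIZ* lie at the lower right.

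Most genes tested around *TLR7* changed in the same direction as *TLR7*. Within 500 kb of *TLR7*, 4 of 4 tested genes fell in MEC1 (median log2 fold change -1.11), namely *TLR8*, *PRPS2* at -0.17, *FRMPD4* at -1.10 and *TMSB4X* at -1.13. In JVM2, 5 of 6 rose (median 2.30), *TLR8* and *TLR8-AS1* at 4.45 and 4.55, *GS1-600G8.5* at 2.88, *FAM9C* at 1.72 and *TMSB4X* at 0.62, while *PRPS2* at 0.09 was not past the test. Of all genes, 21.6% fell in MEC1 and 14.1% rose in JVM2. *TMSB4X*, which encodes a small actin-binding peptide, had 104587 to 113497 counts in MEC1-CTRL and 43670 to 48144 in MEC1-2B17 libraries. *TLR8-AS1* runs antisense to *TLR8* and the strand setting of the counting is not given in the sources used here, so reads of this pair cannot be told apart. *FRMPD4*, with 5 to 19 counts, and the JVM2 controls of *TLR8-AS1*, with 0 to 2 counts, were near the limit of detection. *FRMPD4* in MEC1, and *TLR8* and *TLR8-AS1* in JVM2, passed the filter only through the arm where they were higher. Their directions therefore add no support to these counts and medians. The genes around *TLR10* did not share a direction. In MEC1, 3 of 8 tested genes within 500 kb rose and 1 fell, the highest being *KLHL5* at 0.63, and in JVM2, 3 of 5 rose and 1 fell, with *FAM114A1* at -0.53, where 41.7% and 29.3% of all genes changed. *KLF3*, the next gene beyond *TLR10*, went from 1 to 4 counts in JVM2-CTRL to 10 to 15 counts in JVM2-2B17 libraries (log2 fold change 2.69, adjusted *P* = 0.0017), against 1538 to 1848 counts in MEC1 libraries. In JVM2 it too passed the filter through JVM2-2B17 alone. *TLR1* and *TLR6* share 57 bases of exon in GENCODE v44, as *IRAK4* shares 103 with *TWF1* on the other strand.

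**Figure D5:**
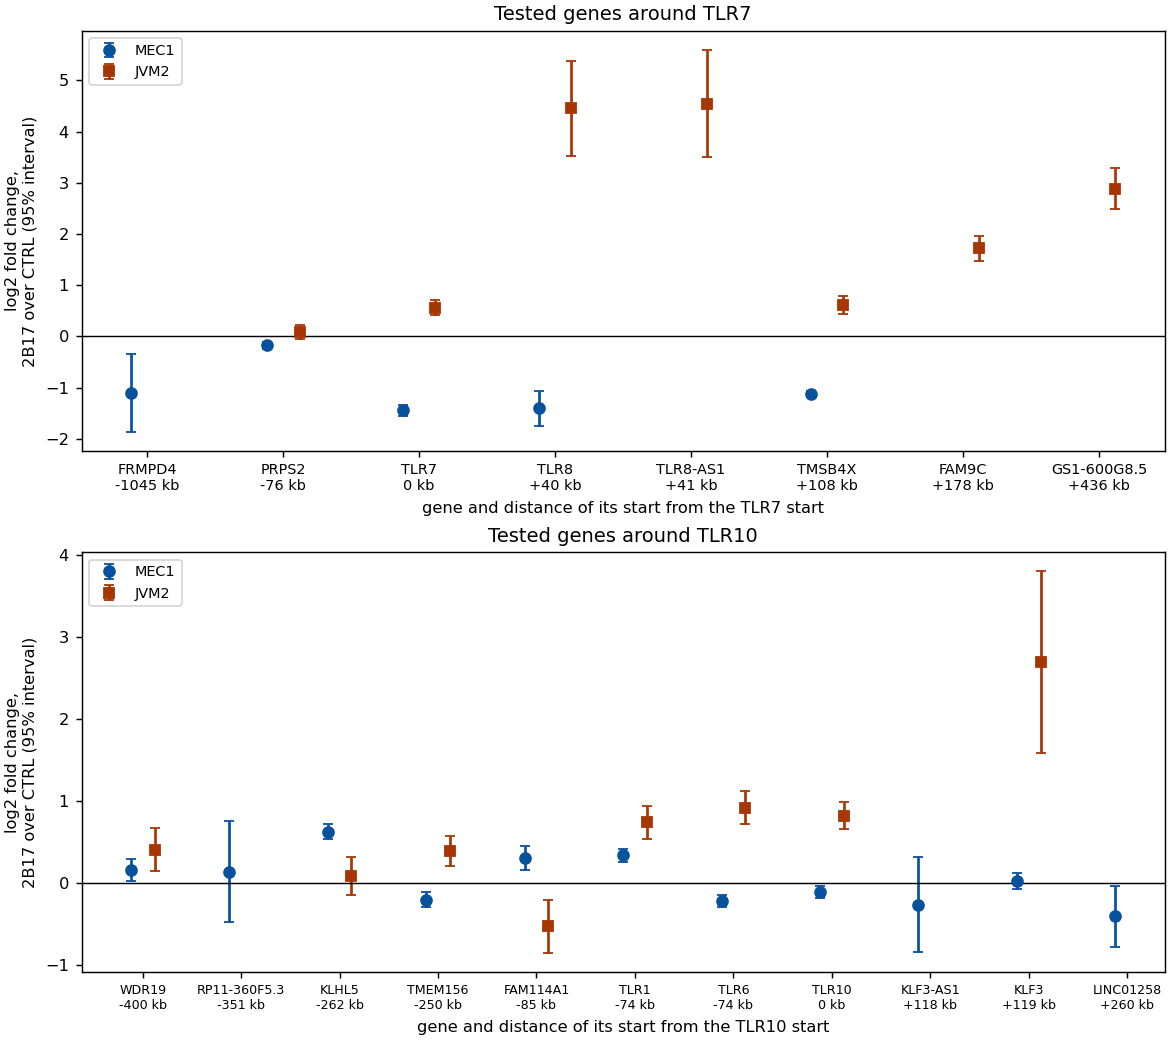
Log2 fold change of 2B17 over CTRL cells, with 95% intervals, for the genes tested around *TLR7* (upper panel) and *TLR10* (lower panel), in order of the distance of their starts. Around *TLR7* every MEC1 value is below 0 and every JVM2 value above 0; around *TLR10* both signs occur in each line.

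All 7 B-cell markers searched were read in every population, with summed levels of 3576 to 3662 CPM in MEC1-CTRL, 3269 to 3430 in MEC1-2B17, 3356 to 3485 in JVM2-CTRL and 3237 to 4131 in JVM2-2B17 libraries. Since *TLR7* and *TLR8* are also genes of plasmacytoid dendritic and myeloid cells, markers of these cells were read beside them. Of 5 plasmacytoid dendritic cell markers, 4 were listed in each table, with summed levels of 291 to 311 CPM in JVM2-CTRL and 312 to 342 CPM in JVM2-2B17, and of 268 to 280 and 268 to 282 CPM in the MEC1 arms. *TCF4*, which B cells also express, made up nearly all of these sums, with 301 ± 10.4 CPM in JVM2-CTRL, 321 ± 17.1 in JVM2-2B17 and 260 ± 6.50 and 260 ± 6.61 in the MEC1 arms. *LILRA4* went from 0 to 3 counts to 11 to 17 counts in JVM2 and *IL3RA* from 1.92 ± 0.822 to 8.04 ± 0.370 CPM, while the defining marker *CLEC4C* went from 4 to 6 counts to 0 to 2 counts in JVM2, with 2 to 4 counts per MEC1 library, and *GZMB* had no row. Of 7 myeloid markers, 4 were listed, with summed levels of 2.27 to 2.79 CPM in MEC1-CTRL, 4.68 to 5.24 in MEC1-2B17, 8.97 to 9.66 in JVM2-CTRL and 17.3 to 20.6 in JVM2-2B17. *ITGAM* led this rise in both lines, at a log2 fold change of 1.58 for MEC1 and 1.22 for JVM2, and *CD33* rose in JVM2 by 0.79 (adjusted *P* = 0.0083). Only these 2 were tested in JVM2, where *LYZ* and *CSF1R* were listed but not tested. Markers with more than 3 counts in a library went from 4 in JVM2-CTRL to 3 in JVM2-2B17. *CSF1R* fell in MEC1 by 0.71 (adjusted *P* = 0.041), and *S100A8*, *S100A9* and *FCGR1A* had no row. Of 6 T-cell markers, 5 were listed in the MEC1 table and only 1, *TRAC*, in the JVM2 table, and *CD3D* had no row in either. *TRAC* was the only marker tested, with 18.7 ± 0.0975 CPM in MEC1-CTRL and 46.7 ± 2.57 CPM in JVM2-CTRL, and it fell in both 2B17 populations. The part of other cells in the receptor changes was not tested, and in bulk RNA fewer cells of a type and less RNA per cell cannot be told apart.

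The genes whose pattern was most like each receptor were found by Pearson's r of log2 CPM over the 12 libraries after subtraction of the line mean, among 11528 genes. Closest to *TLR7* were *DGKI* (r = 0.99) and *CMTM3* (r = 0.99), and closest to *TLR6* were *PLAC8* (r = 0.99) and *SLC9A7* (r = 0.98). *TLR1* was matched by *RCSD1* and *MEOX1* (both r = 0.99), *TLR10* by *EMB* and *UBAC2* (both r = 0.99) and *LY86* by *KLHL13* and *GFOD1* (both r = 0.99). *MYD88* was matched by *TMPO-AS1* and *CDK16* (r = 0.98 and 0.97), *IRAK1* by *GNB2* and *HELZ2* (r = 0.98 and 0.97) and *IRAK4* by *ATAD2B* and *METTL5* (r = 0.96 and 0.93). These values describe 12 libraries that share the arm difference and the depth of their line, and they say nothing of shared control.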

How the data were processed

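RNA of 12 libraries, 3 biological replicates in each of 4 populations of MEC1 and JVM2 cells, was sequenced with paired ends after ribosomal depletion. The paper places the sequencing at different sites without assigning libraries to them, and the part of the site in any comparison was not tested. The authors trimmed and aligned the reads to hg38 with the MUGQIC pipeline, and the deposited counts are raw reads per Ensembl gene, without normalization. The submitters' processing notes name TopHat2 2.0.14, Trimmomatic, HTSeq, DESeq2 and edgeR. The annotation release and the strand setting of the counting are not given in the sources used here. The tables also hold the authors' fold changes, CPM means and *P*-values, which were not used, and 12 columns of normalized values, which were left out.

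Each line was fitted with edgeR 4.0.16 in R 4.3.3 (TMM scaling, filterByExpr defaults of 10 counts and a total of 15, quasi-likelihood F-test), 2B17 against CTRL. The lines were compared, and the interaction of line and arm was tested, in a fit of all 12 libraries over the 16052 genes of both tables. The Benjamini-Hochberg adjustment ran over the whole table tested, at a threshold of 0.05, and standard errors were derived from the F statistic. Each fit was also tested on simulated counts in which 200 genes had been changed. Gene lengths came from GENCODE v44, in which 21798 identifiers of MEC1 and 16799 of JVM2 were found. The alternatives were DESeq2 1.42.0, genes past the threshold in both tools, RLE factors, unscaled library sizes, no filter, at least 10 counts in every library, a replicate block, glmTreat against a fold of 1.3, the fit of all 12 libraries or of only the 6 compared, thinned MEC1 counts, genes of either table, the longest transcript, and each replicate left out.

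The members and lists were chosen with earlier results of these data known. The rule names all members, *UGT2B17*, up to 4 genes of each pathway list with the largest change past the threshold in each comparison, list genes found in 1 table only, the 2 genes most like each member, and tested genes within 500 kb, by count and median. A list gene is not reported here and was left out of its list's counts. Neighbours named singly, and markers, were chosen after their values were seen. Nothing says that the biological replicates came from separate cultures, so *P*-values measure the spread between these samples. Intervals from summed counts are exact and cover counting error only. The deviations of replicates with the same number correlated at -0.044 on average in MEC1 and 0.073 in JVM2, so the numbers were not taken as pairs.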

Additional observations from a re-analysis of the deposited data

Results flagged for a closer look

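The change from CTRL to 2B17 cells differed between the lines, by the interaction test, for 7 of the 9 members and for genes of the 5 pathway lists. At most 4 per list are given. Line and kind of control cannot be told apart in this test. Values are the log2 fold change in MEC1 minus that in JVM2. Among the members they were -2.01 for *TLR7*, -1.14 for *TLR6*, -0.93 for *TLR10*, -0.87 for *LY86*, -0.40 for *TLR1*, -0.28 for *IRAK4* and 2.85 for *CD180*. The last had 2 counts in all in JVM2-2B17 and was kept by the filter through its MEC1 counts.

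Among the other receptors, *TLR8* differed by -5.91 (SE 0.45, adjusted *P* = 2.9e-09) and *TLR4* by -3.37 (SE 0.72, adjusted *P* = 0.0011), and both had 3 counts or fewer in every JVM2-CTRL library. In the list of folding, trafficking and endosomal cofactors, the differences were 1.23 for *HSP90B1* (adjusted *P* = 1.7e-11), 1.16 for *LGMN* (adjusted *P* = 2.2e-09), -0.87 for *CXorf21* (adjusted *P* = 3.2e-06) and -0.49 for *SLC15A4* (adjusted *P* = 6.9e-05). *HSP90B1* and *LGMN* therefore differed with the sign opposite to that of *TLR7*.

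Among adaptors and kinases, *PELI2* differed by -2.80 (adjusted *P* = 6.1e-05), *PIK3AP1* by -0.93 (adjusted *P* = 3.8e-10) and *PELI3* by -0.71 (adjusted *P* = 0.0096). *RNF31*, a subunit of the linear ubiquitin ligase, differed by 0.47 (adjusted *P* = 2.1e-04). *PELI2* had only 7 to 11 counts in MEC1-CTRL and 3 to 7 counts in MEC1-2B17 libraries, and the filter kept it through its JVM2 counts. Among negative regulators, the differences were -0.54 for *IRAK3* (adjusted *P* = 0.0025), -0.25 for *CYLD* (adjusted *P* = 0.026), -0.24 for *PTPN6* (adjusted *P* = 0.0053) and -0.20 for *TNFAIP3* (adjusted *P* = 0.0496). Among genes of stimulated B cells they were -1.37 for *IL10* (adjusted *P* = 0.0068), 1.34 for *NFKBIZ* (adjusted *P* = 1.8e-10), 1.15 for *LTA* (adjusted *P* = 4.8e-07) and 1.08 for *CCL22* (adjusted *P* = 3.1e-04). *IL10* had 5 to 12 counts in JVM2-CTRL and 12 to 17 counts in JVM2-2B17 libraries. For all genes, 32.0% of 15130 were past the threshold for this difference.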

How the results depend on the processing

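Over 738 values of the members in the 5 comparisons under the alternatives, 692 kept their direction and their side of the threshold, 40 lost the call, 3 gained it and 3 turned direction. The 3 that turned were *CD180* in MEC1, at -0.21, -0.05 and -0.06 without MEC1-CTRL replicate 3, MEC1-2B17 replicate 2 and MEC1-2B17 replicate 3, in a range of -0.21 to 0.28 over the fits without a library. The test of glmTreat against a fold of 1.3, which asks for a larger change, kept 1 member in MEC1 and 4 in the interaction, where 7 were past the threshold in each. It called 1566 genes in MEC1, 1106 in JVM2 and 1654 in the interaction, against 6909, 3821 and 4848. With each replicate left out, 5 to 7 members were past the threshold in MEC1, 5 to 8 in JVM2, 8 to 9 between the controls, 8 to 9 between the 2B17 populations and 5 to 7 in the interaction. Under the alternatives that kept every replicate, 6 to 8 were past it between the controls and 7 to 9 between the 2B17 populations.

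With the replicate block, 7, 7, 8, 9 and 7 members were past the threshold in those comparisons, as without it, and 6897 and 4236 genes in MEC1 and JVM2; the block changed no member's call. The numbers were not taken as pairs. With the longest transcript, *IRAK4* stood at 4.29 rather than 2.83 CPM per kilobase in MEC1-CTRL and *TLR1* at 5.07 rather than 3.19 in JVM2-CTRL. Depth limits *CD180* in both lines and *TLR3*, *TLR4* and *TLR8* in JVM2. It also limits *PELI2* in MEC1 and *IL10* in JVM2. No alternative was left out.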

Other observations

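*F13A1*, the clotting transglutaminase subunit encoded within 500 kb of *LY86*, went from 0 to 2 counts in JVM2-CTRL to 44 to 60 counts in JVM2-2B17 libraries. In MEC1 it had 44 to 63 counts in the controls and 36 to 43 counts in MEC1-2B17 libraries. The other genes tested within 500 kb of *LY86* in JVM2 were RREB1 at a log2 fold change of -0.13 (adjusted *P* = 0.41) and LY86-AS1 at 0.46 (adjusted *P* = 0.057), by edgeR's test. These genes were chosen after their values were seen.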
